A study of Arabidopsis thaliana with 24 samples.

Results

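The comparison described here sets the exa1-1 mutant of Arabidopsis thaliana against the wild type after 60 min at 39 °C. Both genotypes were grown as whole seedlings to 9 days on solid medium with sucrose, and the measured quantity was the mRNA recovered with polysomes, that is with ribosomes engaged in translation. The members are the 3 exa1-1 libraries and the 3 wild-type libraries labelled 39 °C, chosen by genotype and temperature alone, 6 of the 24 libraries of the series. They were read against the 6 libraries of the same experiment kept at 23 °C (exa1-1 and wild type, 3 each) and, for single statements, against the 12 libraries of a separate salt experiment (exa1-1 and wild type, in 200 mM NaCl or in MS medium, 3 each, 60 min). All groups were handled as whole seedlings, so no organ or cell type was separated. The labels give 1 mutant line, exa1-1, and no second allele or complemented line was analysed here.

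EXA1 encodes a protein with a GYF domain, a fold that binds proline-rich stretches of partner proteins. It is known as a host factor for plant RNA viruses and as a partner of the cap-binding initiation factors of the eIF4E family, which bring ribosomes to an mRNA. At high temperature plants cut back general translation and make chaperones: heat shock factors (HSFs) switch on genes for the HSP100, HSP90 and HSP70 machines, which refold or disentangle proteins, and for small heat shock proteins, which hold unfolded proteins in a soluble state. No total RNA was analysed here, so a message that was more abundant and a message that carried more ribosomes cannot be told apart, and in whole seedlings neither can fewer cells of a type and less RNA per cell.

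Total gene counts were 17912315 to 18161275 per library in exa1-1 and 18024457 to 18540055 in the wild type at 39 °C. Levels are CPM, counts relative to library size, with TMM factors that equalise the bulk of genes over the 12 heat libraries. The r of log2(CPM + 1) across genes was 0.995 to 0.996 within a genotype and 0.989 between the genotypes. Organellar genes took 0.144% to 0.149% of counts in exa1-1 and 0.131% to 0.133% in the wild type. Of the markers of organs, all 6 for shoots and all 8 for roots were counted, and 2 of 6 for flowers and pollen had no count in any of the 6 libraries. The 6 shoot markers are all photosynthesis genes and also belong to the photosystem and Calvin cycle lists, and they summed to 20310 to 21000 CPM in exa1-1 and 23390 to 24160 CPM in the wild type. A separate list of 17 shoot genes with none of these 6 summed to 168.3 to 171.7 CPM in exa1-1 and 149.9 to 153.8 CPM in the wild type. Of these genes 2 were called higher, LOX2 among them, and 2 lower, and the median log2 fold change was −0.19. The root markers summed to 44.8 to 46.2 CPM in exa1-1 and 39.9 to 41.9 CPM in the wild type. Of this, PHT1;1 alone had 27.2 CPM in exa1-1 and 22.7 CPM in the wild type. The flower and pollen markers summed to 1.87 to 3.93 CPM in exa1-1 and 1.86 to 3.03 CPM in the wild type.

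EXA1 itself (AT5G42950; TAIR10.1 chromosome 5, 17224270 to 17231384, plus strand) was low in the mutant. It had 7.67, 6.01 and 6.07 CPM in exa1-1, against 80.3, 77.2 and 75.0 CPM in the wild type. The 2 genotypes were far apart with no overlap (log2 fold change of −3.56 with an SE of 0.090, adjusted p = 5.2e-36), and the residual counts in exa1-1 amounted to 98, 78 and 78 reads.

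Of 20923 genes tested, 6030 differed between exa1-1 and the wild type at 39 °C at an adjusted p under 0.05, which is 28.8%. Of these, 3170 (15.2% of genes tested) were higher and 2860 (13.7%) lower in exa1-1. The counts of gene groups given below are to be read against these shares. Those groups were chosen with earlier results of these data known. The differences were mostly small: the median called gene differed 1.30-fold, the median standard error (SE) of a log2 fold change was 0.13, and 511 called genes (2.44%) differed more than 2-fold. Among those larger differences the lower genes prevailed, 351 (1.68%) against 160 higher (0.765%). The replicates of the 2 genotypes did not overlap in 8918 genes, 42.6% of those tested. Which direction prevails among all called genes depended on the scaling: with library totals alone 2482 were higher and 3565 lower, and with limma on the authors' FPKM 2182 or 2300 were higher and 3384 or 3635 lower, by pseudocount. Called genes were more frequent at high levels. In the decile of genes with the highest level, 40.3% were higher and 22.3% lower in exa1-1, against 1.43% and 3.06% in the lowest decile.

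Among called genes with a symbol, at least 5 CPM and genotypes that did not overlap, 4 of the 5 with the largest rise in exa1-1 at 39 °C were plant defensins of the PDF1 family, small cysteine-rich antifungal proteins whose genes answer to jasmonate and ethylene together. PDF1.3 had 83.3, 92.5 and 82.8 CPM in exa1-1, against 9.09, 5.34 and 7.11 CPM in the wild type (log2 fold change of 3.58 with an SE of 0.18, adjusted p = 6e-08). PDF1.2, the usual marker of the jasmonate and ethylene branch, had 62.6, 64.9 and 60.6 CPM in exa1-1, against 9.53, 6.08 and 7.11 CPM in the wild type (log2 fold change of 3.05 with an SE of 0.10, adjusted p = 1.74e-30). PDF1.2b had 16.7, 17.5 and 15.7 CPM in exa1-1, against 2.42, 2.15 and 2.72 CPM in the wild type (log2 fold change of 2.77 with an SE of 0.16, adjusted p = 6.72e-20). In each of these 3 the lowest exa1-1 library lay above the highest wild-type one, which their choice required. PDF1.2c showed the same separation, with 28.6, 28.5 and 30.2 CPM in exa1-1, against 6.16, 4.01 and 6.28 CPM in the wild type (log2 fold change of 2.41 with an SE of 0.12, adjusted p = 1.48e-22). The members are near-identical copies, so how the authors' counting shared reads between them is uncertain. At 23 °C the same 4 genes were higher in exa1-1 as well, with log2 fold changes of 3.65 for PDF1.3, 3.23 for PDF1.2, 4.03 for PDF1.2b and 3.45 for PDF1.2c.

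The DNA just upstream of these 4 genes is printed because the factors that act on jasmonate and ethylene targets bind the GCC box, GCCGCC, which was searched on both strands. The windows hold the 250 bases before each annotated gene start (TAIR10.1), 5′ to 3′ on the strand of the gene, with any GCC box in capitals. PDF1.2 lies on the minus strand at chr5:17907639-17907888, PDF1.2c on the minus strand at chr5:17909508-17909757, PDF1.2b on the plus strand at chr2:11088873-11089122 and PDF1.3 on the plus strand at chr2:11087030-11087279.
PDF1.2: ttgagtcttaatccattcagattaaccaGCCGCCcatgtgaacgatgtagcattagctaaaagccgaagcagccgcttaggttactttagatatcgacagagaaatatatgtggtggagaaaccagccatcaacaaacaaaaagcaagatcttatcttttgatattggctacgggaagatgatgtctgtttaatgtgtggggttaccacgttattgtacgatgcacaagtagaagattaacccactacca
PDF1.2b: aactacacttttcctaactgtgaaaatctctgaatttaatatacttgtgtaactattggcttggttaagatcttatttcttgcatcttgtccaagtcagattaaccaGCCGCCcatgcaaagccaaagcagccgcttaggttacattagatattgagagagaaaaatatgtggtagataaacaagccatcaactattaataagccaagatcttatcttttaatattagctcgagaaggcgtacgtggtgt
PDF1.2c: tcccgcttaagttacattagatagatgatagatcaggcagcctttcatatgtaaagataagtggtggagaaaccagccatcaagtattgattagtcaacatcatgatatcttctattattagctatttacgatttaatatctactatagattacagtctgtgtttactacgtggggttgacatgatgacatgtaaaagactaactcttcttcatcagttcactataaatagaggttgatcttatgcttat
PDF1.3: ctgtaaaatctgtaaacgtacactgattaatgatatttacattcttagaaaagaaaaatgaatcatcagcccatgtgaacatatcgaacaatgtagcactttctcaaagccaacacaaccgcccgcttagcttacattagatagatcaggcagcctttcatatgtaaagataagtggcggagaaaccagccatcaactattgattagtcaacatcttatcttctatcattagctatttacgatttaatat
The box stood in 2 of the 4 windows, those of PDF1.2 and PDF1.2b. Over all protein-coding genes it stood in 513 of 27443 such windows (1.87%), among the genes tested in 398 of 20132 (1.98%), among those higher in exa1-1 in 58 of 3110 (1.86%) and among those lower in 58 of 2794 (2.08%). The 2 windows without these letters belong to PDF1.2c and PDF1.3, which were higher in exa1-1 too.

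The other genes with the largest rise under those limits had varied roles. CRA1, which encodes the seed storage protein cruciferin, had 11.5, 11.0 and 11.0 CPM in exa1-1, against 1.54, 1.48 and 1.66 CPM in the wild type (log2 fold change of 2.83 with an SE of 0.19, adjusted p = 1.21e-17). GSTU25, of the tau class of glutathione transferases that attach glutathione to toxic compounds, had 25.7, 26.6 and 24.9 CPM in exa1-1, against 5.79, 8.02 and 6.20 CPM in the wild type (log2 fold change of 1.95 with an SE of 0.13, adjusted p = 1.35e-17). AACT1, an acyltransferase that makes coumaroylagmatine, had 30.6, 30.2 and 30.5 CPM in exa1-1, against 9.68, 9.57 and 7.03 CPM in the wild type (log2 fold change of 1.79 with an SE of 0.12, adjusted p = 3.6e-18). All 3 were separated between the genotypes, which their choice required, and all 3 were below 10 CPM in every wild-type library. CORI3, a cystine lyase induced by coronatine and jasmonate, averaged 31.3 ± 1.31 CPM in exa1-1 and 10.1 ± 0.274 CPM in the wild type (SD, n = 3 each; 1.62, SE 0.11). EXT12, an extensin of the cell wall, averaged 7.98 ± 0.347 CPM in exa1-1 and 2.33 ± 0.248 CPM in the wild type (1.77, SE 0.22), and LAP6, a polyketide synthase of the pollen wall in anthers, averaged 12.9 ± 0.627 CPM in exa1-1 and 4.66 ± 0.539 CPM in the wild type (1.47, SE 0.14).

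Some of the clearest separations lay in genes without a symbol, named here after their values were seen. AT1G64795 had 45.9, 44.0 and 46.1 CPM in exa1-1, against 0.147, 0 and 0.378 CPM in the wild type (log2 fold change of 7.98 with an SE of 0.20, adjusted p = 7.45e-36). Its fold change rests on 2, 0 and 5 wild-type reads and was 9.15 without replicate 3 of the wild type, so the SE understates its uncertainty. The gene showed log2 fold changes of 9.53 at 23 °C, 8.85 in MS and 8.81 in NaCl. It lies on the plus strand of chromosome 1 (TAIR10.1, 24082579 to 24082848) inside ILA, which is on the minus strand (24064822 to 24083428). ILA averaged 35.1 ± 1.71 CPM in exa1-1 and 23.3 ± 1.000 CPM in the wild type (0.59, SE 0.077). The strand setting of the authors' counting is not given in the sources used here, so reads of these overlapping genes cannot be told apart. AT1G73600, annotated like XPL1 below as a phosphoethanolamine methyltransferase, averaged 19.7 ± 1.09 CPM in exa1-1 and 6.02 ± 0.480 CPM in the wild type (1.71, SE 0.13).

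**Figure D1:**
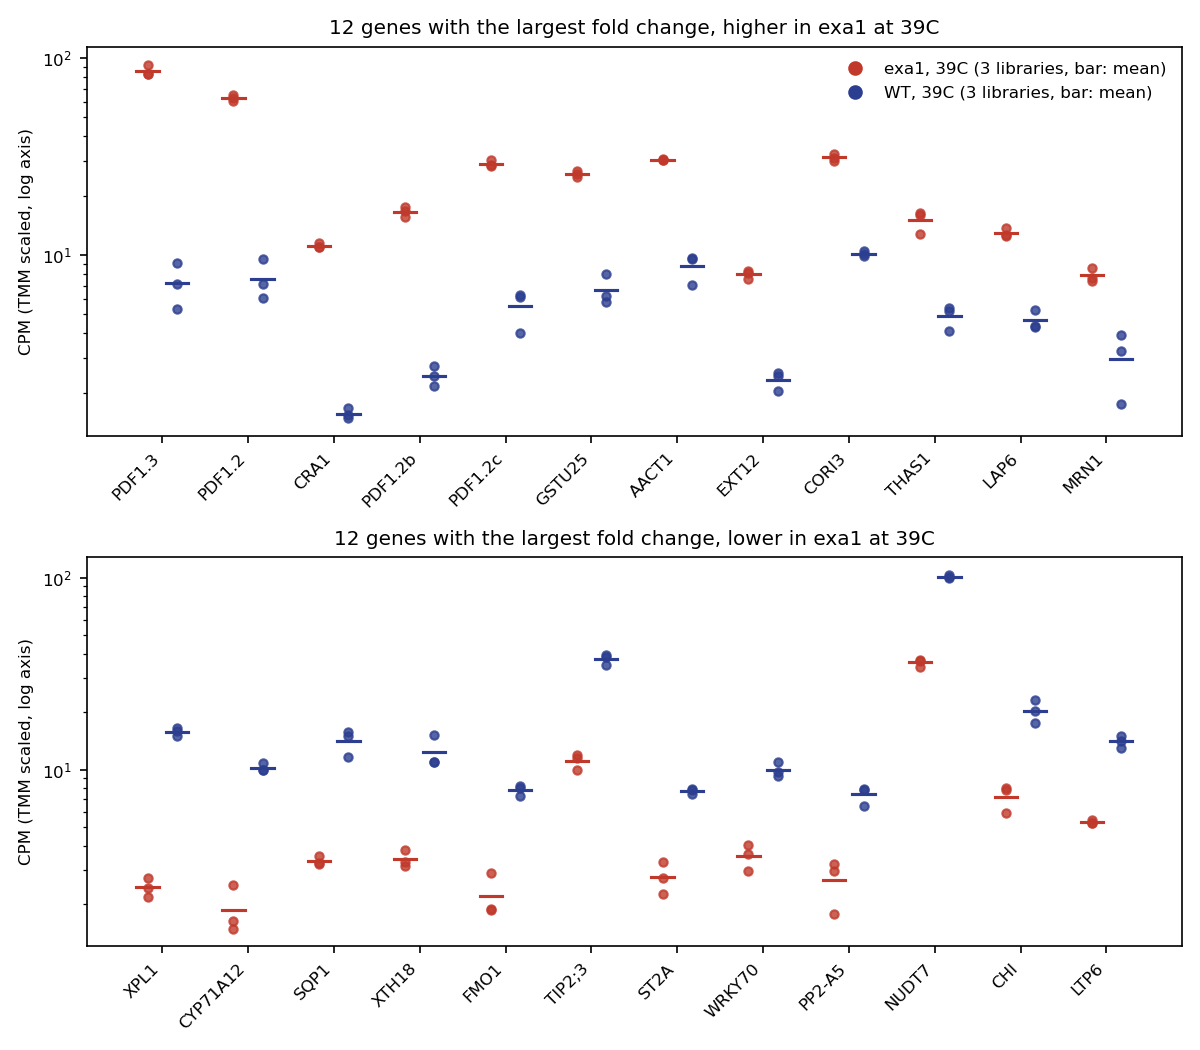
CPM (TMM scaled, log axis) in each 39 °C library of exa1-1 (red, left of each pair) and the wild type (blue, right), bars being means, for the 12 genes with a symbol and at least 5 CPM that had the largest fold change each way. PDF1.3 averaged 86.2 CPM in exa1-1 and 7.18 in the wild type, XPL1 averaged 2.44 CPM in exa1-1 and 15.7 in the wild type, and in all 24 genes the genotypes do not overlap, which the choice of these genes required.

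The genes with the largest fall in exa1-1 at 39 °C, under the same limits, also had varied roles. XPL1, a phosphoethanolamine methyltransferase of phosphocholine synthesis, had 2.74, 2.16 and 2.41 CPM in exa1-1, against 16.5, 14.9 and 15.8 CPM in the wild type (log2 fold change of −2.69 with an SE of 0.14, adjusted p = 4.29e-22). CYP71A12, a cytochrome P450 of the pathway to camalexin and related indole compounds, had 1.49, 1.62 and 2.49 CPM in exa1-1, against 9.89, 10.8 and 9.98 CPM in the wild type (log2 fold change of −2.45 with an SE of 0.20, adjusted p = 1.27e-14). SQP1, a squalene monooxygenase-like gene, had 3.21, 3.55 and 3.27 CPM in exa1-1, against 14.9, 15.7 and 11.7 CPM in the wild type (log2 fold change of −2.08 with an SE of 0.20, adjusted p = 2.82e-12). In none of the 3 did the genotypes overlap, which their choice required. XTH18, of the enzymes that loosen xyloglucan in growing walls, averaged 3.42 ± 0.347 CPM in exa1-1 and 12.3 ± 2.42 CPM in the wild type (−1.84, SE 0.19). ST2A, a sulphotransferase acting on a jasmonate, averaged 2.75 ± 0.525 CPM in exa1-1 and 7.76 ± 0.230 CPM in the wild type (−1.50, SE 0.18). PP2-A5, a lectin of the phloem protein type, averaged 2.65 ± 0.766 CPM in exa1-1 and 7.42 ± 0.840 CPM in the wild type (−1.49, SE 0.23), and LTP6, a lipid transfer protein, averaged 5.34 ± 0.122 CPM in exa1-1 and 14.0 ± 0.954 CPM in the wild type (−1.39, SE 0.15). NUDT7, a hydrolase that restrains defence signalling, had 34.3, 37.4 and 36.7 CPM in exa1-1, against 103, 99.7 and 101 CPM in the wild type, the highest level of the 12 genes in this direction (log2 fold change of −1.49 with an SE of 0.065, adjusted p = 1.5e-25).

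The large chaperones were higher in exa1-1 at 39 °C. Of 24 genes for HSP70, HSP90 and HSP100 proteins and their helpers, 19 rose and 2 fell, and the median log2 fold change was 0.29, against 0.00012 over all genes tested. Together they took 7.64% to 7.65% of all counts in exa1-1 and 6.18% to 6.21% in the wild type. At 23 °C the same genes took 0.408% to 0.423% in exa1-1 and 0.318% to 0.352% in the wild type. HSP101, the disaggregase that seedlings need to survive heat, had 12170, 12680 and 12270 CPM in exa1-1, against 8223, 8095 and 8339 CPM in the wild type (log2 fold change of 0.59 with an SE of 0.036, adjusted p = 7.87e-18). Hsp70b, a cytosolic HSP70, had 11940, 12140 and 12210 CPM in exa1-1, against 8327, 8315 and 8453 CPM in the wild type (log2 fold change of 0.53 with an SE of 0.033, adjusted p = 2.77e-19). HSP90.1, the heat-induced HSP90, had 12580, 13040 and 13150 CPM in exa1-1, against 9659, 9670 and 9764 CPM in the wild type (log2 fold change of 0.41 with an SE of 0.031, adjusted p = 8.52e-16). Each was higher in all 3 exa1-1 libraries than in any wild-type one. The rise included the organelles, with CLPB4, the HSP100 of mitochondria, at 511 ± 9.19 CPM in exa1-1 and 339 ± 8.07 CPM in the wild type (0.59, SE 0.044) and cpHsc70-1, an HSP70 of chloroplasts, at 867 ± 12.3 CPM in exa1-1 and 615 ± 4.81 CPM in the wild type (0.49, SE 0.038). The 2 genes that fell were Hsp70-2 (−0.52, SE 0.049) and Hop1, a co-chaperone that links HSP70 to HSP90 (−0.32, SE 0.066).

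Small heat shock proteins differed little. Of 14 cytosolic ones 7 were called higher and 1 lower (median 0.10), at rises of at most 1.14-fold, and the group took 7.26% to 7.36% of counts in exa1-1 and 7.04% to 7.15% in the wild type. These calls depended on the scaling and test: 3 were higher with library totals alone, 4 with all 24 libraries in the fit and 0 with limma on FPKM. AT1G07400, of the HSP20-like family, had 23010, 22920 and 23400 CPM in exa1-1, against 20650, 20820 and 21140 CPM in the wild type (log2 fold change of 0.15 with an SE of 0.031, adjusted p = 0.00019), and limma on log2(FPKM + 1) gave it an adjusted p of 0.506. AT4G21870, of the same family, was the 1 that fell, with 5.16, 6.32 and 6.54 CPM in exa1-1, against 13.6, 13.3 and 12.6 CPM in the wild type (log2 fold change of −1.13 with an SE of 0.13, adjusted p = 1.41e-09). Of 5 organellar small heat shock proteins 3 were called higher, 0 of them with limma on FPKM, and HSP21, which protects chloroplasts, was at 2447 ± 31.7 CPM in exa1-1 and 2453 ± 49.6 CPM in the wild type (−0.0035, SE 0.033, adjusted p = 0.958). Among 112 DnaJ proteins, the HSP40 partners of HSP70, 19 rose (17.0%) and 20 fell (17.9%). Over all genes tested these shares were 15.2% and 13.7%.

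**Figure D2:**
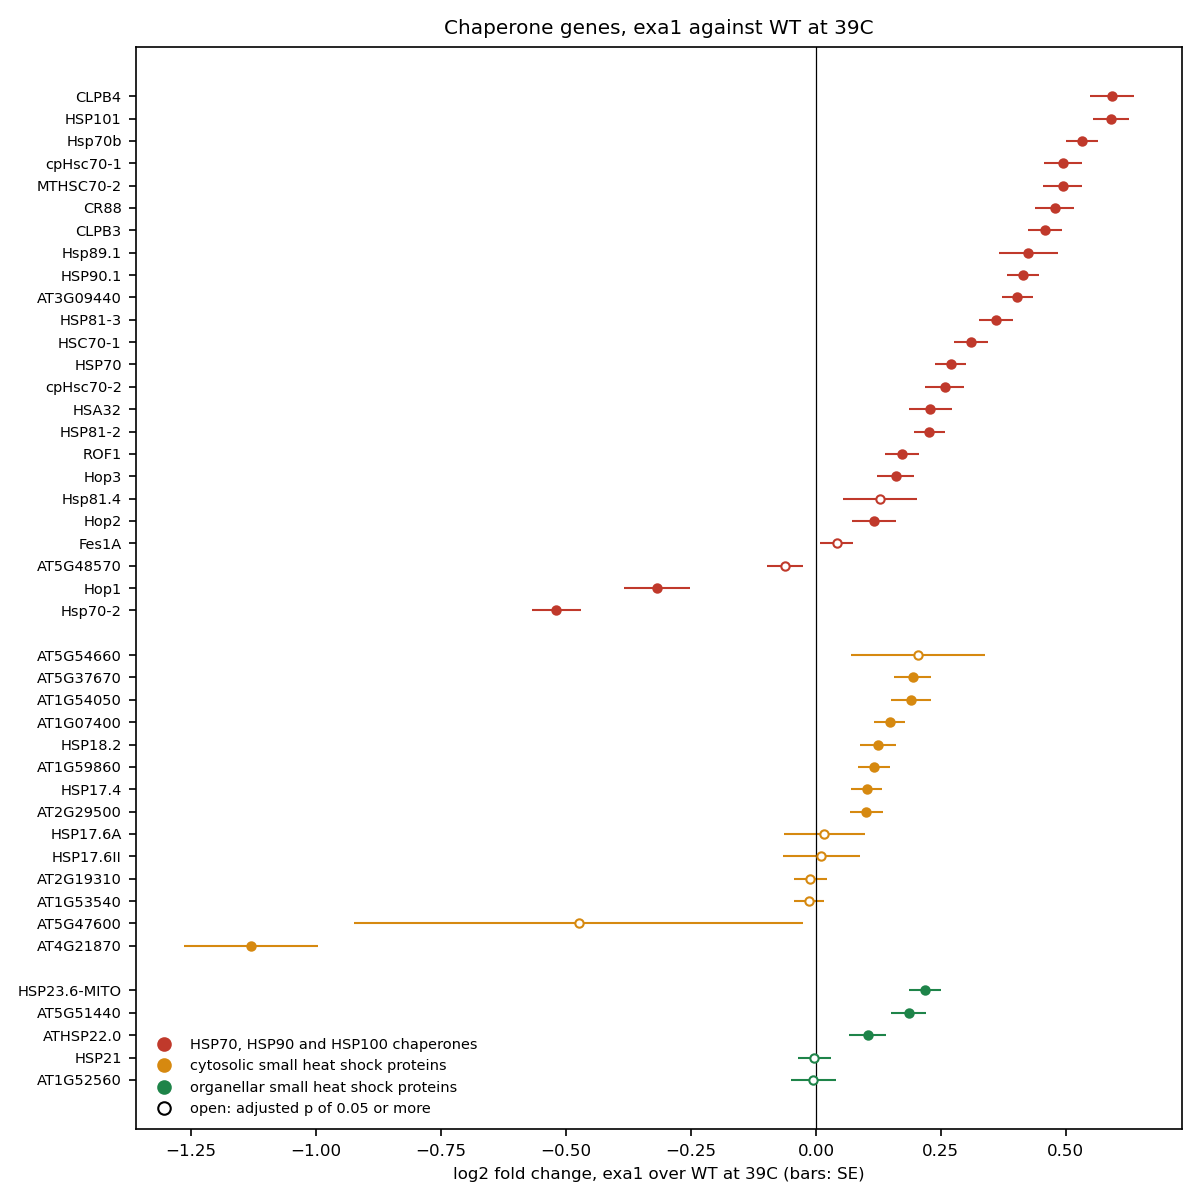
Log2 fold change, exa1-1 over the wild type at 39 °C, with SE bars, for each tested chaperone gene in 3 groups, filled where the adjusted p was under 0.05. The large chaperones reach 0.59 (CLPB4) and 0.59 (HSP101), whereas most small heat shock proteins lie within 0.25 of 0, with AT4G21870 at −1.13.

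The factors that control these genes moved in both directions. Of 22 HSFs and heat regulators 8 rose and 6 fell (5 rose with limma on log2(FPKM + 0.1)), with a median of −0.0011. Among the class A1 factors, which start the heat response, HSFA1D rose (0.43, SE 0.11; adjusted p = 0.00188, but 0.0595 with that limma test) and HSFA1E fell (−0.43, SE 0.092). DREB2A, an activator of heat and drought genes upstream of HSFA3, had 609, 591 and 598 CPM in exa1-1, against 447, 432 and 431 CPM in the wild type (log2 fold change of 0.46 with an SE of 0.040, adjusted p = 1.11e-13), and HSFA3 had 150.3, 144 and 142 CPM in exa1-1, against 219.5, 213 and 223 CPM in the wild type (log2 fold change of −0.59 with an SE of 0.052, adjusted p = 1.57e-13). The genotypes did not overlap in either gene. AT-HSFB2B, a repressor of the HSF class B, rose (0.47, SE 0.045). Of 19 genes for chaperones of the endoplasmic reticulum and the unfolded protein response 7 rose and 4 fell (7 fell with library totals alone or with only the 6 libraries). The binding proteins of the HSP70 family there were higher, BIP1 at 1926 ± 27.7 CPM in exa1-1 and 1387 ± 17.7 CPM in the wild type (0.47, SE 0.037) and BIP2 at 2331 ± 21.2 CPM in exa1-1 and 1876 ± 9.36 CPM in the wild type (0.31, SE 0.038). BZIP28, a membrane-held factor that switches these genes on, rose (0.49, SE 0.047), and BZIP60, activated by splicing, fell (−0.23, SE 0.049).

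Genes of the translation machinery, and 2 lists outside it, proteasome subunits and helicases of any kind, were more often higher than lower in exa1-1 at 39 °C. Over all genes tested 15.2% were higher and 13.7% lower, and in the decile with the highest level 40.3% and 22.3%. Whether the level of the genes in these lists has a part in their counts was not tested. Of 30 partners of EXA1 and initiation factors 15 rose and 4 fell, with a median of 0.24. The fallers are less certain, with 2 under DESeq2, 1 without replicate 1 of either genotype and 2 without replicate 3 of the wild type. EIF4G, the scaffold that joins the cap-binding protein to the ribosome, had 56.2, 58.1 and 59.2 CPM in exa1-1, against 38.3, 36.3 and 38.0 CPM in the wild type (log2 fold change of 0.62 with an SE of 0.068, adjusted p = 1.01e-10), above the wild type in every library. PAB4, a poly(A)-binding protein, averaged 259 ± 4.62 CPM in exa1-1 and 182 ± 4.33 CPM in the wild type (0.51, SE 0.043), and eIFiso4G1, the plant-specific scaffold, averaged 231 ± 3.96 CPM in exa1-1 and 172 ± 5.57 CPM in the wild type (0.42, SE 0.043). EIF4A-2, an RNA helicase of initiation, fell to 69.9 ± 1.01 CPM in exa1-1, against 97.4 ± 3.70 CPM in the wild type (−0.48, SE 0.057). Of 53 aminoacyl-tRNA synthetases 21 rose (39.6%) and 1 fell (1.89%). Of 34 proteasome subunits 13 rose (38.2%) and 3 fell (8.82%), with 0 falling under DESeq2 or without replicate 3 of the wild type. Of 108 helicases, chosen by that word in the product name, 32 rose (21 with limma on log2(FPKM + 1)) and 5 fell (3 under DESeq2 or without replicate 2 of exa1-1). Cytosolic ribosomal proteins had 46 of 135 members higher (34.1%) and 14 lower (10.4%), with a median of 0.094. These became 51 higher and 11 lower with RLE factors or DESeq2, 37 higher and 21 lower with library totals alone, and 32 higher and 18 lower with limma on log2(FPKM + 1).

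Photosynthesis genes were lower in exa1-1. Of 41 nuclear genes for photosystems and light-harvesting antennae 35 fell and 1 rose, with a median of −0.36, and the count of 35 was the same without any 1 of the 12 libraries. Their share of all counts was 7.09% to 7.27% in exa1-1 and 9.16% to 9.18% in the wild type. LHCB2.1, an antenna protein of photosystem II, had 266, 258 and 264 CPM in exa1-1, against 470.0, 498 and 493 CPM in the wild type (log2 fold change of −0.89 with an SE of 0.046, adjusted p = 2.03e-22). LHCB3 had 921, 919 and 933 CPM in exa1-1, against 1691, 1704 and 1683 CPM in the wild type (log2 fold change of −0.87 with an SE of 0.038, adjusted p = 1.01e-25). LHB1B1, a further antenna gene also known as LHCB1.4, averaged 1744 ± 18.5 CPM in exa1-1 and 3139 ± 42.3 CPM in the wild type (−0.85, SE 0.035). Antenna genes thus included the largest falls of the list, and in the named ones no exa1-1 library reached the wild type. Antenna genes have near-identical copies, between which the sharing of reads is uncertain. Of 19 genes of Rubisco and the Calvin cycle 9 fell and 3 rose (5 rose with only the 6 libraries), by less, with CA1, a carbonic anhydrase, at 2220 ± 18.7 CPM in exa1-1 and 2878 ± 28.9 CPM in the wild type (−0.37, SE 0.032) and GAPB, a subunit of the chloroplast glyceraldehyde phosphate dehydrogenase, at 1790 ± 19.7 CPM in exa1-1 and 1560 ± 11.5 CPM in the wild type (0.20, SE 0.036). Among 47 chloroplast-encoded transcripts 2 were higher (4 with only the 6 libraries) and 1 lower.

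Aquaporins, the water channels of plasma and vacuolar membranes, fell as a group: 13 of 21 were lower in exa1-1 and 0 higher, with a median of −0.32, and the count of 13 was the same without any 1 library. TIP2;3, a vacuolar channel of roots, had 9.94, 11.9 and 11.5 CPM in exa1-1, against 39.5, 34.9 and 38.6 CPM in the wild type (log2 fold change of −1.76 with an SE of 0.10, adjusted p = 1.56e-21). PIP2A, a plasma membrane channel, had 679, 659.5 and 657 CPM in exa1-1, against 999, 1012 and 991 CPM in the wild type (log2 fold change of −0.59 with an SE of 0.035, adjusted p = 6.72e-20). TIP2, also known as TIP1;2, averaged 634 ± 4.93 CPM in exa1-1 and 1004 ± 8.34 CPM in the wild type (−0.66, SE 0.033). In these 3 channels the genotypes did not overlap. The aquaporins took 0.422% to 0.426% of counts in exa1-1 and 0.590% to 0.597% in the wild type.

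Autophagy genes included 10 of 28 that fell and 3 that rose, with 6 lower once replicate 3 of exa1-1 was left out. The fallers included ATG8 genes, whose proteins coat the autophagosome membrane: ATG8E averaged 63.3 ± 1.08 CPM in exa1-1 and 108 ± 2.12 CPM in the wild type (−0.77, SE 0.054) and ATG8H 25.4 ± 2.15 CPM in exa1-1 and 46.1 ± 2.41 CPM in the wild type (−0.86, SE 0.088). NBR1, a receptor that delivers protein aggregates to autophagosomes, rose to 665 ± 15.1 CPM in exa1-1, against 527 ± 5.35 CPM in the wild type (0.33, SE 0.038).

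Salicylate genes, which act against biotrophic pathogens, were lower. Of 19 tested 10 fell and 0 rose, with a median of −1.04, the lowest of the lists. BGL2, a glucanase also known as PR2, had 0.235, 0.694 and 0.545 CPM in exa1-1, against 5.50, 4.08 and 5.07 CPM in the wild type (log2 fold change of −3.29 with an SE of 0.31, adjusted p = 1.59e-12). FMO1, which makes the systemic signal N-hydroxypipecolic acid, had 2.90, 1.85 and 1.87 CPM in exa1-1, against 7.26, 8.02 and 8.17 CPM in the wild type (log2 fold change of −1.82 with an SE of 0.23, adjusted p = 7.36e-09). WRKY70, a factor that favours salicylate over jasmonate responses, had 2.97, 3.62 and 4.05 CPM in exa1-1, against 9.31, 9.72 and 10.9 CPM in the wild type (log2 fold change of −1.49 with an SE of 0.15, adjusted p = 1.87e-11). All 3 were at low levels, under 12 CPM in every library, and separated the genotypes. CBP60G, an activator of salicylate synthesis, averaged 2.33 ± 0.377 CPM in exa1-1 and 4.80 ± 0.779 CPM in the wild type (−1.04, SE 0.20), whereas NPR1, the salicylate receptor, was at 69.7 ± 3.84 CPM in exa1-1 and 68.1 ± 3.17 CPM in the wild type (0.033, SE 0.066, adjusted p = 0.762). Of 22 genes of pattern-triggered immunity 5 fell and 0 rose, among them WRKY33 (−0.70, SE 0.18) and PAD3, the last enzyme of camalexin synthesis (−0.74, SE 0.15). Of 30 NLR immune receptors and partners listed by locus 2 rose (0 with limma on FPKM) and 8 fell, with 5 lower without replicate 2 or 3 of the wild type or replicate 1 of exa1-1. The wider set of intracellular immune receptors of the NLR kind held 8 higher and 12 lower among 129 genes chosen by product name, below the shares of all genes, and leaving out single 39 °C libraries took these to as few as 3 higher and 6 lower. ZAR1, an NLR that forms a calcium channel, fell to 62.3 ± 1.92 CPM in exa1-1, against 99.8 ± 8.22 CPM in the wild type (−0.68, SE 0.063). Of 55 WRKY factors 12 fell (21.8%) and 3 rose (5.45%).

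Jasmonate genes moved both ways, with 7 of 28 higher and 11 lower. The risers included enzymes of synthesis, of which AOC1, an allene oxide cyclase, averaged 24.5 ± 0.991 CPM in exa1-1 and 12.6 ± 0.106 CPM in the wild type (0.96, SE 0.12). LOX2, the lipoxygenase of leaf chloroplasts, averaged 38.4 ± 0.572 CPM in exa1-1 and 24.2 ± 1.44 CPM in the wild type (0.67, SE 0.088), and AOS, the allene oxide synthase, named after its value was seen, averaged 82.5 ± 4.49 CPM in exa1-1 and 49.5 ± 4.14 CPM in the wild type (0.74, SE 0.073). The other risers included the defensins described above. The fallers included the repressor TIFY10B, also known as JAZ2, at 11.8 ± 0.855 CPM in exa1-1 and 19.9 ± 2.43 CPM in the wild type (−0.75, SE 0.12), and a further lipoxygenase, LOX3, at 2.15 ± 0.346 CPM in exa1-1 and 4.02 ± 0.565 CPM in the wild type (−0.90, SE 0.26). Of 27 ethylene genes 4 rose (14.8%) and 7 fell (25.9%). The receptor ETR2 averaged 80.3 ± 3.00 CPM in exa1-1 and 57.9 ± 1.68 CPM in the wild type (0.47, SE 0.064). ERF6, a stress-activated response factor, averaged 14.7 ± 0.756 CPM in exa1-1 and 24.7 ± 3.73 CPM in the wild type (−0.75, SE 0.12). Of 29 abscisic acid genes 3 rose (1 with limma on FPKM) and 8 fell, with ERD10, a dehydrin that protects membranes, at 724 ± 14.9 CPM in exa1-1 and 956 ± 7.35 CPM in the wild type (−0.40, SE 0.039). Auxin and growth genes had 7 of 29 lower and 0 higher, with IAA19, a repressor tied to hypocotyl growth, at 2.61 ± 0.962 CPM in exa1-1 and 6.05 ± 0.229 CPM in the wild type (−1.21, SE 0.23) and TCH4, a xyloglucan enzyme induced by touch, at 15.4 ± 1.59 CPM in exa1-1 and 32.6 ± 3.25 CPM in the wild type (−1.08, SE 0.079).

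**Figure D3:**
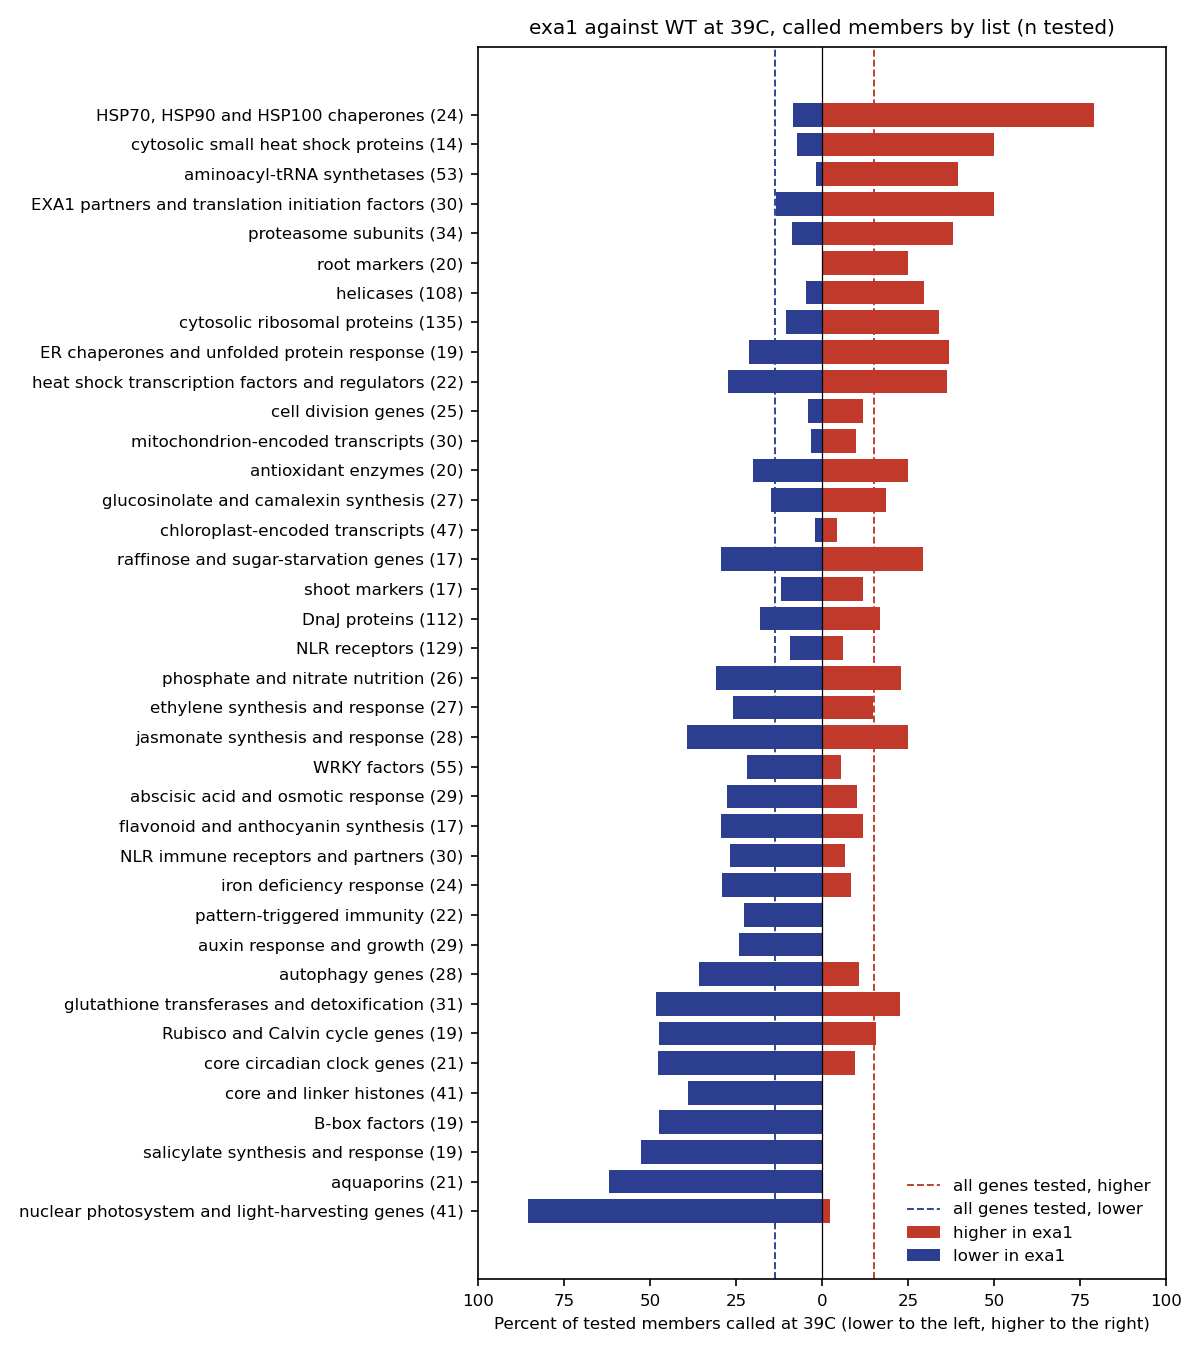
Percent of tested members called higher (red, to the right) and lower (blue, to the left) in exa1-1 at 39 °C for each gene list, members tested in parentheses, for lists of at least 10 tested members, ordered by the share higher less the share lower. Dashed lines mark all genes tested, 15.2% higher and 13.7% lower. The bars run from the large chaperones, with 19 of 24 higher, to the photosystem genes, with 35 of 41 lower.

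Glutathione transferases and other detoxification genes had 15 of 31 lower and 7 higher (4 higher with limma on FPKM or without replicate 1 of exa1-1). Against the rise of GSTU25 and of the abundant GSTU19, at 2500 ± 42.1 CPM in exa1-1 and 1744 ± 33.7 CPM in the wild type (0.52, SE 0.038), stood falls of GSTU10 (−1.02, SE 0.16) and GSTU2 (−1.21, SE 0.28). Iron genes included FER1, a ferritin that stores iron in plastids, which fell to 341 ± 12.2 CPM in exa1-1, against 642 ± 16.5 CPM in the wild type (−0.91, SE 0.040), and FER3 (−0.49, SE 0.047). Over the 24 iron genes tested 7 fell (4 without replicate 2 of the wild type) and 2 rose (0 without replicate 3 of the wild type). Among 20 antioxidant genes 5 rose (3 with limma on FPKM) and 4 fell (2 without replicate 3 of exa1-1). The catalases split, CAT3 rising to 2706 ± 33.4 CPM in exa1-1, against 2022 ± 65.7 CPM in the wild type (0.42, SE 0.033) and CAT2 falling to 256 ± 8.00 CPM in exa1-1, against 363 ± 12.4 CPM in the wild type (−0.50, SE 0.043). Of 27 glucosinolate and camalexin genes 5 rose (18.5%) and 4 fell (14.8%), near the shares of all genes, and 7 fell with limma on log2(FPKM + 0.1). Of 17 flavonoid genes 2 rose (11.8%) and 5 fell (29.4%), 3 without replicate 2 of exa1-1. The fallers included MYBL2, a repressor of anthocyanin synthesis (−1.35, SE 0.17).

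Core clock genes had 10 of 21 lower and 2 higher, 6 lower without replicate 2 of the wild type. PRR5, a repressor active in the evening, had 16.4, 17.0 and 17.0 CPM in exa1-1, against 45.1, 42.5 and 40.2 CPM in the wild type (log2 fold change of −1.34 with an SE of 0.093, adjusted p = 3.5e-17), with a wide gap between the genotypes. ZTL, the light-sensing protein that degrades PRR5, averaged 144 ± 4.46 CPM in exa1-1 and 104 ± 1.06 CPM in the wild type (0.47, SE 0.053). The B-box factors, regulators of light responses, had 9 of 19 lower and 0 higher. Histones had 16 of 41 lower and 0 higher (median −0.25), with 10 lower without replicate 3 of the wild type and 9 without replicate 3 of exa1-1. Of 25 cell division genes 3 rose (12.0%) and 1 fell (4.0%), below the shares of all genes. Only 1 rose with library totals, with limma, without replicate 1 of the wild type or without replicate 3 of exa1-1. The faller was SYP111, the syntaxin of the forming cell plate (−0.75, SE 0.11). Among 26 genes of phosphate, nitrate and sulphate nutrition 6 rose and 8 fell. Among 17 of raffinose and sugar starvation 5 rose (3 with library totals or without replicate 3 of the wild type, 8 without replicate 1 or 3 of the wild type at 23 °C) and 5 fell, and of 8 cold-regulated genes 1 rose and 3 fell.

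Seed storage genes and some root genes were higher in exa1-1. Of 13 seed storage and oleosin genes 6 were tested and 4 rose (2 with the stricter filter or without replicate 3 of the wild type). CRU3, a second cruciferin, had 7.59, 5.48 and 7.16 CPM in exa1-1, against 0.660, 0.890 and 0.756 CPM in the wild type (log2 fold change of 3.12 with an SE of 0.26, adjusted p = 2.64e-14), so that no wild-type library reached an exa1-1 one, as for CRA1 above. The 4 seed markers summed to 17.7 to 19.6 CPM in exa1-1 and 2.45 to 2.64 CPM in the wild type. Of 20 root genes 5 rose (3 with limma on log2(FPKM + 1), 2 without replicate 3 of the wild type) and 0 fell. PRP3, a proline-rich wall protein of root hairs, had 7.36, 6.17 and 6.07 CPM in exa1-1, against 1.32, 1.26 and 1.36 CPM in the wild type (log2 fold change of 2.31 with an SE of 0.21, adjusted p = 4.28e-13). The root markers summed at the start, most of which are in the root list too, were likewise higher in exa1-1 as a sum. Most of that rise came from PHT1;1, not in the root list, at 27.2 CPM in exa1-1 and 22.7 CPM in the wild type. The sums of the 20 root genes overlapped, at 108.8 to 112.2 CPM in exa1-1 and 101.4 to 113.0 CPM in the wild type. Their median log2 fold change was 0.013. The sum of the photosynthesis genes used as shoot markers was lower in exa1-1. That of the 17 other shoot genes, which include LOX2 above, was higher, but their median log2 fold change was −0.19. The part of organ content in these results was not tested.

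Genes of 2 root triterpene clusters, in which neighbouring genes encode successive enzymes of 1 pathway, were higher, 7 of 8 past the test. The clusters were looked at after the values of THAS1 and MRN1 had been seen. In the thalianol cluster on chromosome 5 all 5 genes were higher: THAS1, the synthase, had 16.3, 12.8 and 16.0 CPM in exa1-1, against 4.11, 5.20 and 5.37 CPM in the wild type (log2 fold change of 1.62 with an SE of 0.14, adjusted p = 1e-13), CYP708A2 averaged 11.9 ± 1.65 CPM in exa1-1 and 6.90 ± 1.38 CPM in the wild type (0.78, SE 0.14) and CYP705A5 averaged 15.5 ± 1.80 CPM in exa1-1 and 8.96 ± 1.24 CPM in the wild type (0.80, SE 0.12). The acyltransferase-type neighbours AT5G47980 (2.09, SE 0.47) and AT5G47950 (1.03, SE 0.26) rose as well, at lower levels. In the marneral cluster MRN1, the synthase, had 8.61, 7.40 and 7.63 CPM in exa1-1, against 1.76, 3.93 and 3.25 CPM in the wild type (log2 fold change of 1.40 with an SE of 0.19, adjusted p = 5.6e-08), CYP71A16 averaged 4.30 ± 0.519 CPM in exa1-1 and 2.03 ± 0.212 CPM in the wild type (1.08, SE 0.21) and CYP705A12 averaged 2.59 ± 0.738 CPM in exa1-1 and 1.94 ± 0.777 CPM in the wild type (0.42, SE 0.30, adjusted p = 0.314). The marneral cluster (17023502 to 17058245) lies close to EXA1. Other genes named above lie within 1000 kb of it too. They are PDF1.2 (window from 17907639), PDF1.2c (window from 17909508) and, by locus order, CRA1 and AOS. PDF1.2b and PDF1.3 lie on chromosome 2. Within 500 kb of EXA1, 60 of 198 tested genes were called (30.3%) and 6 differed over 2-fold. Within 1000 kb these were 106 of 394 (26.9%) and 12. Over all genes tested 28.8% were called, and 2.44% were called and over 2-fold. Whether the region around EXA1 has a part in the values of these genes was not tested.

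How far the difference at 39 °C was already present at 23 °C was read from the 6 libraries kept at 23 °C. None of them enter the contrast at 39 °C, but both contrasts share 1 filter, 1 set of TMM factors and 1 estimate of spread. There 7283 genes (34.8%) differed between exa1-1 and the wild type, 3568 higher (17.1%) and 3715 lower (17.8%). Of the 3170 genes higher at 39 °C, 1517 (47.9%, and 42.5% of those higher at 23 °C) were higher at 23 °C too and 227 (7.16%) were lower there. Of the 2860 genes lower at 39 °C, 1404 (49.1%, and 37.8% of those lower at 23 °C) were lower at 23 °C and 162 (5.66%) were higher. Across all genes tested the log2 fold changes at the 2 temperatures had a Pearson r of 0.36, genes not being independent replicates. The salt experiment gave an r of 0.30 in MS, where 7717 of 21453 genes (36.0%) were called, and 0.20 in NaCl, where 6950 (32.4%) were. In all 4 conditions 248 of 3152 genes (7.87%) were higher and 509 of 2841 (17.9%) lower.

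The genotype effect itself differed between the temperatures in 3533 genes (16.9%), with 1838 (8.78%) above 0, that is more positive at 39 °C, and 1695 (8.1%) below 0. This test shares the 39 °C libraries with the comparison above. With library totals alone the split was 1387 above and 2255 below, and with limma on FPKM 1252 or 1055 above and 2016 or 1927 below. GSTU25 was at 25.8 CPM in exa1-1 and 6.67 CPM in the wild type at 39 °C, and at 6.50 ± 0.864 CPM in exa1-1 and 6.68 ± 0.863 CPM in the wild type at 23 °C (difference 1.99, SE 0.19, adjusted p = 7.22e-12). PRP3 had a difference of 1.81, SE 0.24, adjusted p = 8.9e-08, and RHL41, a zinc finger factor of oxidative and light stress also known as ZAT12, one of 1.77, SE 0.19, adjusted p = 4.92e-07, since RHL41 was higher in exa1-1 at 39 °C (0.61, SE 0.10) and lower at 23 °C (−1.16, SE 0.17). 3 further genes were lower in exa1-1 at 23 °C and nearer to the wild type at 39 °C. SAP10, a stress-associated zinc finger protein, had a log2 fold change of 0.049 (SE 0.15, adjusted p = 0.852) at 39 °C and −4.13, SE 1.25 at 23 °C. ELI3-2, an alcohol dehydrogenase induced by elicitors, had −0.31 (SE 0.12, adjusted p = 0.0551) at 39 °C and −2.95, SE 0.34 at 23 °C, and its difference of 2.65 was 2.01 without replicate 1 and 3.39 without replicate 3 of exa1-1 at 23 °C. PMZ, a further zinc finger protein, had −0.31, SE 0.10 at 39 °C and −2.48, SE 0.29 at 23 °C. The call of PMZ at 39 °C was lost with limma, without replicate 1 or 3 of the wild type (adjusted p = 0.0989 and 0.0729) and without replicate 1 or 2 of exa1-1 (0.05 and 0.0529). For SAP10 the difference (adjusted p = 0.0152) lost its call without replicate 3 of the wild type at 23 °C (3.75, adjusted p = 0.0509) and with limma on log2(FPKM + 1) (0.25, adjusted p = 0.314). For PMZ the difference (2.17, SE 0.31, adjusted p = 2.83e-06) lost its call with limma on log2(FPKM + 0.1) (adjusted p = 0.0925).

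Below 0 stood genes whose exa1-1 level was relatively lower at 39 °C than at 23 °C. XPL1 averaged 26.2 ± 0.979 CPM in exa1-1 and 34.0 ± 1.72 CPM in the wild type at 23 °C, where it was lower in exa1-1 by less (log2 fold change of −0.38), beside the values at 39 °C given above (difference −2.31, SE 0.17, adjusted p = 1.42e-15). SQP1 (−2.08, SE 0.20 at 39 °C and 0.39, SE 0.38 at 23 °C) and PP2-A5 (−1.49, SE 0.23 at 39 °C and 0.18, SE 0.27 at 23 °C) were lower in exa1-1 at 39 °C but not at 23 °C. PRR5 was closer to the wild type at 23 °C (−0.20, SE 0.10). CIA2, a factor for genes of chloroplast protein import, was lower in exa1-1 at 39 °C (−1.16, SE 0.15) and higher at 23 °C (0.31, SE 0.088). BEH1, a brassinosteroid-related factor, was at −1.59, SE 0.39 at 39 °C and 0.045, SE 0.13 at 23 °C. Its difference (−1.63, SE 0.41, adjusted p = 0.00305) lost its call with limma on log2(FPKM + 1), at −0.50 with adjusted p = 0.0548. The organellar small heat shock genes HSP23.6-MITO and ATHSP22.0 had the most negative differences among called genes with a symbol and at least 5 CPM, with HSP23.6-MITO at −2.81, SE 0.31, adjusted p = 1.89e-09 and ATHSP22.0 at −6.06, SE 0.77, adjusted p = 2.55e-07. The value and the SE of ATHSP22.0 depend on the prior count of the fit, because no wild-type library had a read of it at 23 °C. At 23 °C both genes were close to absent, HSP23.6-MITO at 0.912 ± 0.217 CPM in exa1-1 and 0.107 ± 0.0612 CPM in the wild type and ATHSP22.0 at 0.464 ± 0.246 CPM in exa1-1 and 0 ± 0 CPM in the wild type, while at 39 °C HSP23.6-MITO averaged 8831 ± 146 CPM in exa1-1 and 7593 ± 36.1 CPM in the wild type and ATHSP22.0 8647 ± 277 CPM in exa1-1 and 8050 ± 234 CPM in the wild type. The small difference of ATHSP22.0 at 39 °C (0.10, SE 0.037) kept no call with limma, library totals or all 24 libraries, nor without any 1 of 6 of the 12 libraries (adjusted p = 0.0596 to 0.197), and that of HSP23.6-MITO (0.22, SE 0.032) kept none with limma. CSD2, a copper and zinc superoxide dismutase of chloroplasts, was at −0.60, SE 0.19 at 39 °C and 0.98, SE 0.092 at 23 °C, the call at 39 °C being lost without replicate 1 of the wild type (adjusted p = 0.222) and without replicate 3 of exa1-1 (0.0522).

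**Figure D4:**
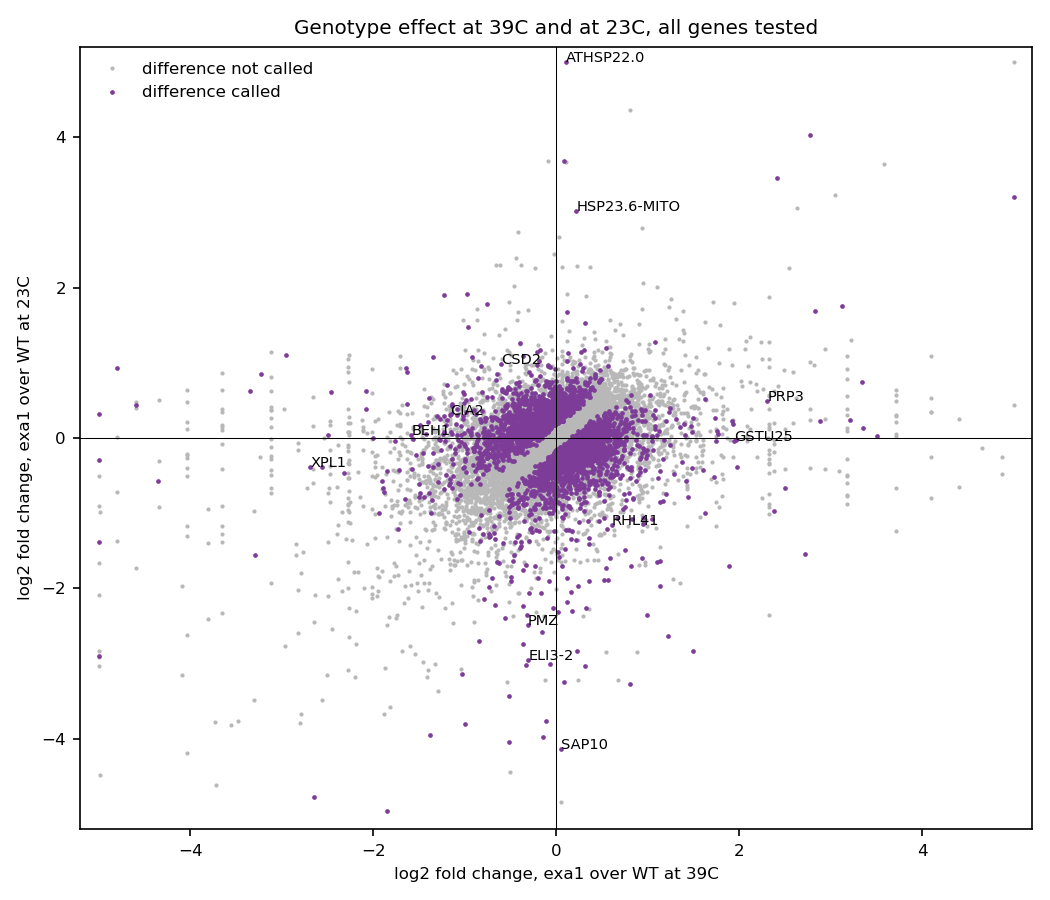
Log2 fold change, exa1-1 over the wild type, at 39 °C (horizontal) and at 23 °C (vertical) for the 20923 genes tested, purple where the difference between the temperatures was called, with values beyond 5 drawn at 5. The called differences lie along both sides of the diagonal, and the labelled genes lie far from it, such as XPL1 at −2.69 and −0.38 and RHL41 at 0.61 and −1.16.

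Gene groups also differed in how much of the effect was seen at 23 °C. Among the large chaperones the difference was above 0 in 13 of 24 genes and below 0 in 4. Of these 24, 11 were higher and 5 lower in exa1-1 at 23 °C. In MS 2 were higher and 10 lower, and in NaCl 9 were higher and 2 lower. Among helicases the difference was above 0 in 17 of 108 and below 0 in 0. For cytosolic ribosomal proteins it ran the other way, with 4 above 0 and 50 below, with 82 of 135 higher in exa1-1 at 23 °C and 46 at 39 °C, and with 3 higher and 84 lower in MS. Histones had 0 above and 7 below, and flavonoid genes 1 above and 8 below. Photosystem genes had 9 above and 12 below, with 33 of 41 lower in exa1-1 at 23 °C, 36 in MS and 40 in NaCl. Aquaporins were lower in 14 of 21 cases at 23 °C and higher in 3, lower in 15 and higher in 3 in MS, and lower in 6 and higher in 7 in NaCl. Salicylate genes were lower in 14 of 19 at 23 °C and higher in 0, and of 20 tested 12 were lower and 1 higher in MS and 9 lower and 3 higher in NaCl. The defensin PDF1.2 had log2 fold changes of 3.90 in MS and 2.51 in NaCl, and HSP101 of −0.34 in MS and 0.11 in NaCl.

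The direction of the difference followed the length of the coding sequence, a property examined after the values were seen. Of the genes tested 20133 (96.2%) have an annotated coding length. The Spearman correlation of length with log2 fold change, across genes, was 0.217 at 39 °C, 0.122 at 23 °C, 0.440 in MS and 0.190 in NaCl. It was 0.300 at 39 °C among genes of at least 10 CPM. In the decile of genes with the longest coding sequences (median 3046 bases) 29.1% were higher and 4.32% lower in exa1-1 at 39 °C, whereas in the shortest decile (median 327 bases) 8.89% were higher and 17.8% lower. The median coding length was 1446 bases for genes called higher, 880.5 for genes called lower and 1155 for the rest. Among the lists, the large chaperones have a median of 2006 bases and helicases of 2338, while photosystem genes have 777, aquaporins 861 and histones 411. Against that order, ribosomal proteins have 528 bases with more members higher than lower, and NLR receptors 3054 bases with few called members. Whether length has a part in the results of the lists was not tested.

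**Figure D5:**
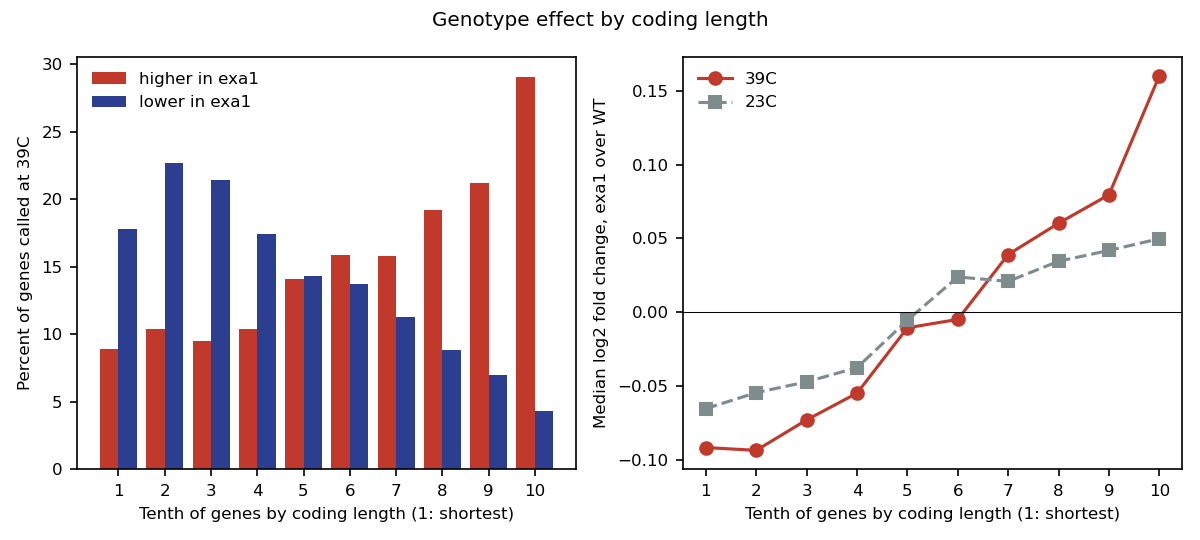
Left, percent of genes called higher (red) and lower (blue) in exa1-1 at 39 °C in each decile of genes by coding length. Right, the median log2 fold change, exa1-1 over the wild type, in the same deciles at 39 °C (red circles) and 23 °C (grey squares). The share of higher genes is 8.89% in the shortest decile and 29.1% in the longest, and the median at 39 °C runs from −0.092 to 0.16.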

How the data were processed

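Polysome-bound mRNA of 24 libraries (8 groups of 3) was sequenced with strand kept. The authors deposited a table of raw read counts per gene and a table of FPKM, counts per length and library total, used here for 1 alternative. The submitters' processing notes name TAIR10 as the build, HTSeq 0.6.1p1 and HISAT2 2.0.4; strand and multi-read settings are not given in the sources used here. Groups came from the titles. Nothing says whether the 3 replicates share cultures, so p-values measure the spread between these samples. A batch field has 1 entry for all samples.

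Counts of the 12 heat libraries were fitted together with edgeR 4.0.16 in R 4.3.3 (filterByExpr, TMM, robust quasi-likelihood), testing genotype at 39 °C, at 23 °C and the difference of the effects; the 12 salt libraries were fitted likewise. Calls rest on Benjamini-Hochberg adjusted p-values under 0.05 over all genes tested; all adjusted p-values come from edgeR unless limma is named. Levels are mean CPM with SD. Of 32833 genes counted, 20923 passed the filter on low counts and were tested.

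Alternatives were RLE factors, library totals, DESeq2 1.42.0, limma 3.58.1 on log2(FPKM + 1) or log2(FPKM + 0.1) (mean FPKM of 0.5 or more), no filter, a filter of 1 CPM in 6 libraries, a replicate block, all 24 or only the 6 libraries, organellar genes left out, a 1.5-fold minimum, and each library left out. Same-numbered libraries were checked for shared residuals before the block was read.

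The 31 lists by locus, the genes in them and the 11 families by product name or genome were chosen with earlier results of these data known. Named are EXA1, the 12 called genes each way with the largest fold change among those with a symbol, 5 CPM or more and genotypes without overlap, the 6 each way for the difference (at least 5 CPM over the 12 libraries), and up to 4 called members of a list each way with at least 1 CPM; the text gives part of them. Outside that rule, and chosen after their values were seen, are AT1G64795, ILA, AT1G73600, HSP90.1, HSP21, CBP60G, NPR1, AOS and the neighbours of THAS1 and MRN1. Promoter windows and coding lengths come from the TAIR10.1 genome and annotation. Python 3.11.15, pandas 2.3.3, numpy 2.4.6 and matplotlib 3.10.9 made tables and figures.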

Additional observations from a re-analysis of the deposited data

Results flagged for a closer look

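By the test of the difference itself (edgeR, adjusted p under 0.05), the effect of genotype at 39 °C differed from that at 23 °C in 3533 genes. These are 16.9% of those tested, and 62 of the 104 genes named above are among them. Part of the 104 were chosen by this same test, and 99 were called at 39 °C, whose libraries the test shares. The count of 62 follows from that choice and is no result to set beside the 16.9%. Each value is the log2 fold change, exa1-1 over the wild type, at 39 °C less that at 23 °C.

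Genes above the wild type in exa1-1 at 39 °C, SAP10 without passing the test there, whose difference was above 0 had differences of SAP10 4.18, GSTU25 1.99, PRP3 1.81, RHL41 1.77, EXT12 1.72, CRU3 1.37, MRN1 1.36, LAP6 1.31, CRA1 1.14, AOC1 1.12, THAS1 1.097, LOX2 0.77, CYP71A16 0.71, CYP708A2 0.61, AOS 0.54, ZTL 0.47, CLPB4 0.42, cpHsc70-1 0.41, HSP90.1 0.37, DREB2A 0.35, BZIP28 0.33, CAT3 0.30, Hsp70b 0.29 and GAPB 0.21. They include the triterpene synthases THAS1 and MRN1, the jasmonate synthesis genes AOC1, LOX2 and AOS, and the large chaperones CLPB4, cpHsc70-1, HSP90.1 and Hsp70b. The difference of SAP10 is uncertain. It was 0.25 without a call with limma on log2(FPKM + 1), and lost its call without replicate 3 of the wild type at 23 °C.

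Genes below the wild type at 39 °C, ELI3-2 without passing the test there, whose difference was above 0, and which were lower still in exa1-1 at 23 °C, had differences of ELI3-2 2.65, PMZ 2.17, PAD3 1.24, Hsp70-2 0.31, CAT2 0.24 and CA1 0.16. Camalexin synthesis by PAD3 and the catalase CAT2 belong here.

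Genes below the wild type at 39 °C whose difference was below 0 had differences of SQP1 −2.47, XPL1 −2.31, BGL2 −1.74, PP2-A5 −1.67, BEH1 −1.63, CSD2 −1.58, CIA2 −1.48, XTH18 −1.40, GSTU2 −1.17, PRR5 −1.14, MYBL2 −0.97, SYP111 −0.84, NUDT7 −0.76, FER3 −0.76, ST2A −0.70, LTP6 −0.66, AT4G21870 −0.62, TIP2 −0.59, ZAR1 −0.55, FER1 −0.55, TIFY10B −0.49, LHCB2.1 −0.45, EIF4A-2 −0.40, BZIP60 −0.28, TCH4 −0.27 and PIP2A −0.17. The iron stores FER1 and FER3, the clock gene PRR5 and wall and membrane genes are in this group.

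Genes above the wild type at 39 °C whose difference was below 0, and which were further above it at 23 °C, had differences of ATHSP22.0 −6.06, HSP23.6-MITO −2.81, PDF1.2b −1.26, PDF1.2c −1.04, AT1G07400 −0.62 and BIP2 −0.24. The defensin copies and small heat shock genes stand here. The value of ATHSP22.0 depends on the prior count of the fit, since the wild type had no read of it at 23 °C. No group held the 4 samples needed to look for a library far from its group.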

How the results depend on the processing

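The 6030 genes called at 39 °C became 5566 to 6964 under the other scalings, filters, tools and fits tried, and 5047 to 6416 with any 1 of the 12 heat libraries left out. At 23 °C the leave-one-out range was 6361 to 7252 and for the difference between temperatures 2886 to 3951. For the salt experiment, where leaving out libraries was chosen after seeing the data, it was 6399 to 7748 in MS and 5752 to 7734 in NaCl. A minimum of 1.5-fold in the test left 209 genes at 39 °C (59 higher and 150 lower), 366 at 23 °C (58 higher and 308 lower) and 71 for the difference (46 above and 25 below 0), which its construction implies.

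In the heat experiment replicate numbers share only a number (residual correlations of same-numbered libraries −0.037 to 0.097, with 0 above 0.1). In the salt experiment the same range was −0.050 to 0.121, and a differently numbered pair reached 0.158. With the number as a replicate block 6051 genes were called at 39 °C, 7267 at 23 °C, 3556 for the difference, 7850 in MS and 7059 in NaCl.

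For the 104 named genes, 2394 results under alternatives kept both their sign and their call status at 39 °C. With the sign unchanged, 80 lost the call, most with the 1.5-fold minimum, and 9 gained it, all for ELI3-2. Values near 0 changed sign in 12 cases, with no call. SAP10 was at −0.00036 with library totals and −0.027 (without replicate 1 of the wild type) to 0.19 with single libraries left out. NPR1 was at −0.016 with library totals or limma (−0.0157 and −0.0165 by pseudocount) and −0.0039 (without replicate 1 of the wild type) to 0.077 with single libraries left out. HSP21 was at 0.018 with RLE, 0.019 with DESeq2 and −0.018 to 0.012 (without replicate 3 of the wild type) with single libraries left out. The cause was not tested.

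Depth limits low genes: the median SE was 0.80 in the decile of genes with the lowest level and 0.046 in the highest. With 3 libraries a genotype, 1 line and no total RNA analysed here, the values cover the polysome fraction of these seedlings. Calls of very small differences, as among the small heat shock genes and the ribosomal proteins, depend on the scaling.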
